A study of Mus musculus with 72 samples.

Results

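Of the 13556 H3K27me3 peaks listed for vehicle-treated, activated mouse CD8+ T cells, 2946 (21.7%) overlapped by at least 1 base a peak in both the CB-839 list and the glutamine-free list but no peak in the DON list. These 2946 regions, called here the regions missing with DON, were chosen from the peak lists themselves, so their presence and absence in those lists is a description and carries no test. They were compared with the 2265 vehicle peaks that overlapped a peak in all 3 other lists and with the 4033 that overlapped none. The RNA and the H3K27ac measurements were not used to choose them.

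The cells came from OT-I mice, whose T cells carry a receptor for the ovalbumin peptide SIINFEKL, and were labelled as CD8+ T cells. Splenocytes, with red cells lysed, were cultured in complete RPMI medium, and every stimulated group, controls included, received the peptide at 10 ng/mL and human IL-2 at 100 IU/mL. The groups were vehicle (DMSO and PBS are both named as solvents), CB-839 at 1 µM, DON at 1 µM, and medium without glutamine. CB-839 inhibits glutaminase, the first enzyme of glutamine breakdown, whereas DON is a glutamine analog that inhibits many enzymes that use glutamine. H3K27me3 and H3K27ac were mapped at 48 h by CUT&RUN, in which an antibody directs a nuclease to the marked chromatin, with 1 merged list for each condition and mark. RNA-seq had 4 libraries in each group at 4 h, 24 h and 48 h and 4 of unstimulated cells. Totals of the 48 h libraries were 33.2 to 48.2 M counts. Because splenocytes were cultured, other cells can be present: summed markers of CD8 T cells were 3459 to 4268 CPM (counts scaled to library size) in vehicle libraries at 48 h and 3920 to 4088 CPM with DON.

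H3K27me3 is the trimethylated form of lysine 27 of histone H3. It is written by Polycomb repressive complex 2, whose catalytic subunit is EZH2 or EZH1, read in part by CBX subunits of Polycomb repressive complex 1, and removed by the demethylases KDM6A and KDM6B. It covers the CpG-rich promoters of silent developmental regulators in broad domains and genes of other lineages in narrower ones, and in CD8+ T cells it lies on many genes that the resting or the effector cell does not use.

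The DNA under the regions was examined first at promoters. RefSeq promoter windows of 300 bases (250 before and 50 after a start, GRCm38.p6, the assembly also called mm10) were available for 892 of the 1508 gene symbols with a start within 1000 bases of a region missing with DON, and 645 of these symbols had a window wholly inside such a region. The 1049 windows that lay wholly inside a region missing with DON held a median of 14 CpG dinucleotides (interquartile range 7 to 25) and 59.3% G and C. The 1545 windows inside regions of all 4 lists held a median of 16 CpG and 60.7% G and C. Windows inside regions listed with vehicle only (224) and windows away from any vehicle peak (29042) both held a median of 6 CpG. At least 10 CpG were present in 65.4% of windows missing with DON, 69.6% of windows in all 4 lists, 40.2% of vehicle-only windows and 43.4% of all 32817 windows. By median, the windows missing with DON lay nearer to those in all 4 lists than to vehicle-only windows.

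**Figure D1:**
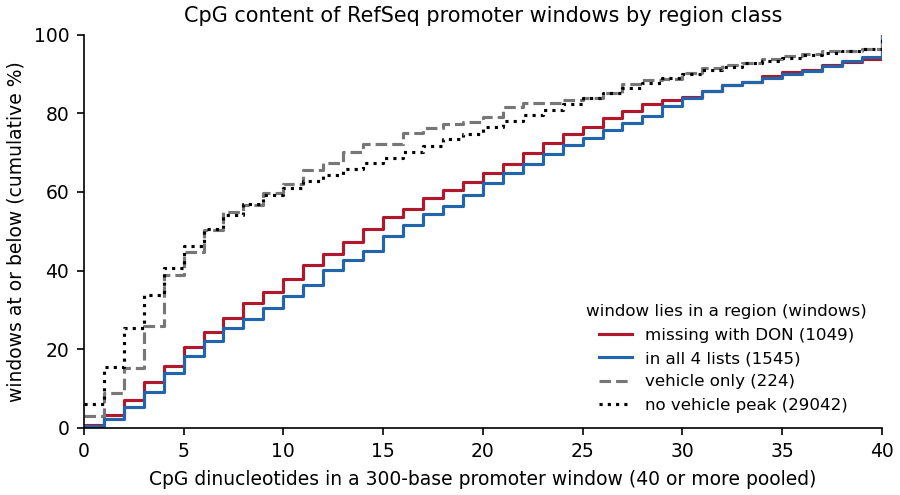
Cumulative share of 300-base RefSeq promoter windows (y axis, %) against the number of CpG dinucleotides in the window (x axis), for windows wholly inside each class of region and for windows away from any vehicle peak. The curve of regions missing with DON runs close to that of regions in all 4 lists, with medians of 14 and 16 CpG, and to the right of the other curves, whose medians are both 6.

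The upstream parts of 8 windows are printed. Some belong to genes with RNA changes described later (Gpr25, Hspa1l and Epcam rose with DON, whereas Vldlr, P4ha2 and Fkbp11 fell). In order of change, these were the first with a window wholly inside a missing region and upstream bases free of exons. Genes with larger changes, such as Ttyh1 and Slc1a2, were therefore passed over. The others belong to 1 developmental regulator (Vax1) and 1 ion channel (Cacna1b) that lost the listing. Each is the 250 bases before a RefSeq start, written 5′ to 3′ on the gene's strand, with CpG dinucleotides in capitals.
Gpr25: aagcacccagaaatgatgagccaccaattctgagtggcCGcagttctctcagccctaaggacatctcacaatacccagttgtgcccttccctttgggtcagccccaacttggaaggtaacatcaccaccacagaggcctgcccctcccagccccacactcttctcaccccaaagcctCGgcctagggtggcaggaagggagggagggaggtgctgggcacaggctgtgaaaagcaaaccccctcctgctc
Hspa1l: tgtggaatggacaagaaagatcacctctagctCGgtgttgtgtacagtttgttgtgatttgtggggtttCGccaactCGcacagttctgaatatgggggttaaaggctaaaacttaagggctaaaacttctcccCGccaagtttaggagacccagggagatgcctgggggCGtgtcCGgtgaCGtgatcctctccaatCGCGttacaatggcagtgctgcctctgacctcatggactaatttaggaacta
Epcam: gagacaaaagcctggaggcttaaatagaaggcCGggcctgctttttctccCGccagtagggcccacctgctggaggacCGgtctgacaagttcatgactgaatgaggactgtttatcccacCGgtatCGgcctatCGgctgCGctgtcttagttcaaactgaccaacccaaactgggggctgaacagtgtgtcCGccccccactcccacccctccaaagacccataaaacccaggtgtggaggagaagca
Vldlr: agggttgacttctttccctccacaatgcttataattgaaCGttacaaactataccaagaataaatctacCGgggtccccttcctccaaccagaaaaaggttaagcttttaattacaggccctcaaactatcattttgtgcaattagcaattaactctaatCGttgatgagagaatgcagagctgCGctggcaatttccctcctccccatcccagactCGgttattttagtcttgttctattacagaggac
P4ha2: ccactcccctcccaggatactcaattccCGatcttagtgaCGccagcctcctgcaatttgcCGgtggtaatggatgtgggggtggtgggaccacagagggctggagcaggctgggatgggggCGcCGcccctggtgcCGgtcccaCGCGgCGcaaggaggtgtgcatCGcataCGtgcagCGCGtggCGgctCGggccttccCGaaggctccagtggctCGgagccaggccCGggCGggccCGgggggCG
Fkbp11: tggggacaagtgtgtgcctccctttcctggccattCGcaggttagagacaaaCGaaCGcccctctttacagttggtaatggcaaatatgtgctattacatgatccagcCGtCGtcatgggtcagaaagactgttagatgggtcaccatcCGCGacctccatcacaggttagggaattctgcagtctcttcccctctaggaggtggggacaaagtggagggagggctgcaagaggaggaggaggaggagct
Vax1: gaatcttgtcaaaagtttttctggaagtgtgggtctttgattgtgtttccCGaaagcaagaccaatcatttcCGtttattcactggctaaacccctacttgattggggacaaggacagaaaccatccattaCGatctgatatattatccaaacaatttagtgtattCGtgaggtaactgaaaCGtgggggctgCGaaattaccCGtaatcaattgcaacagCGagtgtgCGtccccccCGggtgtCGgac
Cacna1b: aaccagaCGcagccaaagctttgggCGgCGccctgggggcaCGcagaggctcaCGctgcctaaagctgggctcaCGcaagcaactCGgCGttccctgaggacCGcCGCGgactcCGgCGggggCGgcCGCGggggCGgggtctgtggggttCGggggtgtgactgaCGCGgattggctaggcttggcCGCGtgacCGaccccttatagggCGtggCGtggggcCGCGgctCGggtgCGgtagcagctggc
Gpr25 lies at chr1:136260927-136261176 (minus strand), Hspa1l at chr17:34972453-34972702 (plus), Epcam at chr17:87635729-87635978 (plus) and Vldlr at chr19:27216234-27216483 (plus). P4ha2 lies at chr11:54100674-54100923 (plus), Fkbp11 at chr15:98728199-98728448 (minus), Vax1 at chr19:59170398-59170647 (minus) and Cacna1b at chr2:24763153-24763402 (minus). The P4ha2 stretch lies downstream of the gene start used to assign P4ha2 to its region (chr11:54100095). None of the 8 stretches overlaps an exon of the count table's annotation. They range from 2 CpG in Gpr25 and 5 in Vldlr to 21 in P4ha2 and 29 in Cacna1b. Hspa1l has 9, Epcam 8, Fkbp11 7 and Vax1 11.

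Motifs were counted on either strand of the 300-base windows, and a match is only a match of letters. The GC box GGGCGG was present in 51.2% of windows missing with DON, 54.3% of windows in all 4 lists and 35.6% of all windows; it contains a CpG and so moves with CpG content. The AP-1 element TGACTCA was present in 4.77%, 4.85% and 5.20%, and the C/EBP-ATF element TGATGCAA in 0.477%, 0.647% and 0.896%. Among the 8 printed stretches GGGCGG was found in Epcam, P4ha2 and Cacna1b, and the other 2 motifs in none.

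**Figure D2:**
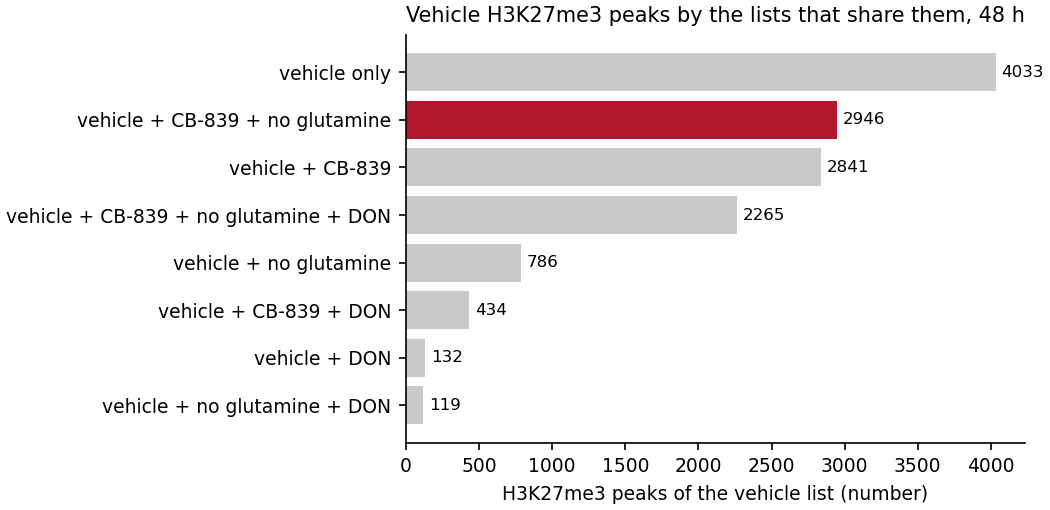
Number of vehicle H3K27me3 peaks (x axis) by the other lists in which they overlap a peak (y axis). The 2946 regions missing with DON (red) form the largest class after the 4033 peaks listed with vehicle only, and exceed the 119 and 434 regions missing only with CB-839 or only without glutamine.

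Loss of a listing was much more frequent with DON than under the other conditions. Of the 5211 vehicle regions also listed with CB-839 and without glutamine, 2946 (56.5%) had no DON peak. The converse count was 119 of 2384 (4.99%) for regions missing only with CB-839 and 434 of 2699 (16.1%) for regions missing only without glutamine. The whole DON list was short, with 3533 peaks against 12417 with CB-839 and 8795 without glutamine, and its lowest listed signal was 8.12 against 7.0 with vehicle. The lists keep peaks on which 2 replicates agree at an irreproducible discovery rate (IDR) of 0.05, so from the lists alone less of the mark and poorer agreement between replicates cannot be told apart.

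Regions missing with DON were intermediate in size. Their median width was 4970.5 bases (interquartile range 3253.75 to 7137.25), against 7999 bases for regions in all 4 lists and 2199 for vehicle-only regions, and together they covered 16.5 Mb. The authors' signal, whose scale the sources used here do not give, had medians of 9.62, 10.96 and 7.67 in the same order. An IDR of 0.01 or better was reached by 62.6%, 81.5% and 25.4% of them. The 2 replicate signals that make up this value had medians of 4.01 and 4.09 in regions missing with DON and differed at least 2-fold in 18.5% of them. With CB-839 and without glutamine the regions were mostly covered along their length, with a median of 92.0% of the vehicle peak under a CB-839 peak and 82.6% under a glutamine-free peak.

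The share missing with DON fell with width, a trend that the overlap rule itself favors. Any shared base counted as overlap, so a wider vehicle peak had more bases that could meet a DON peak. How much of the trend came from the rule was not tested. The 5211 shared regions were put in 5 groups of equal number by width. In the narrowest group (292 to 3439 bases) 78.04% were missing with DON, then 69.2%, 62.1% and 48.9%, and in the widest (10111 bases and wider) 24.4%. By signal the 5 groups gave 72.6%, 56.3%, 62.4%, 49.5% and 41.8%, an order that was not steady. Only 4 of the 100 widest shared regions were missing with DON.

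**Figure D3:**
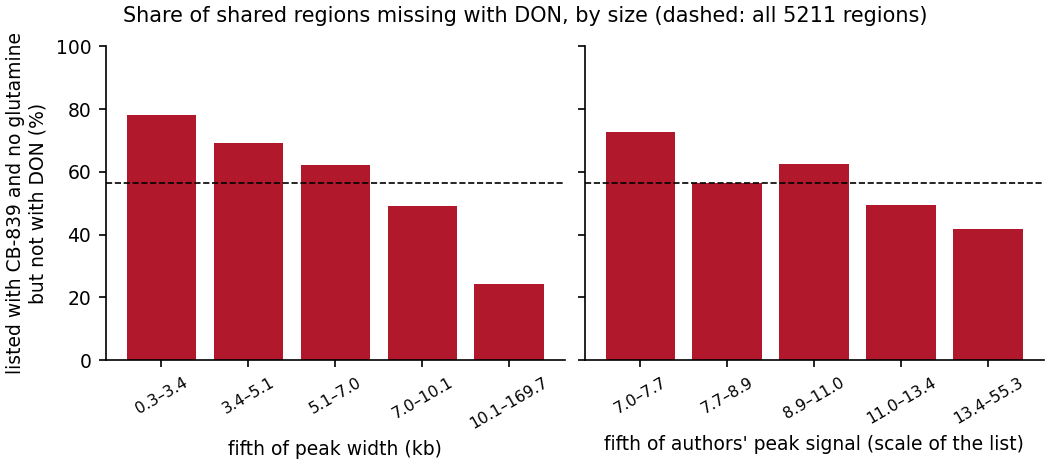
Share (y axis, %) of the vehicle regions shared with CB-839 and no glutamine that have no DON peak, in 5 groups of peak width in kb (left) and of the authors' signal (right), each group holding 1042 or 1043 regions. The share falls from 78.04% to 24.4% across width, and the dashed line marks the 56.5% of all 5211 regions. Any shared base counted as overlap, which favors a lower share in wider peaks.

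The widest region missing with DON was chr12:69860294-69896192 (35899 bases, mm10), over the starts of Atl1, a membrane-shaping GTPase of the endoplasmic reticulum, and Map4k5, a protein kinase. Next came chr11:83912101-83941365 (29265 bases), whose signal of 37.03 was also the highest of all the members and which lay 696 bases from the start of Ddx52, an RNA helicase gene. The third, chr8:57316801-57342163 (25363 bases), covered the start of Hand2, a transcription factor of heart and limb development, and was covered over its whole length with CB-839 and without glutamine. The next in width, chr2:22634525-22658436 and chr1:63254306-63276143, held no coding start within 1000 bases, and after them chr3:108212699-108234190, lay at Sypl2, a synaptophysin-like gene. Other regions of high signal lay at Dsp, which encodes the desmosome protein desmoplakin (chr13:38143630-38159386, signal 29.46), and at Trpc1, a cation channel gene (chr9:95737623-95759053, signal 28.69). At the Trpc1 region the 2 replicate signals were 24.57 and 4.11, so its height rested mostly on 1 replicate.

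Missing regions were mostly far from any DON peak. The median gap to the nearest DON peak was 84.4 kb, 1379 regions (46.8%) lay over 100 kb away, 594 (20.2%) lay within 10 kb and 85 within 1 kb. Vehicle-only regions lay further away, with a median gap of 132.9 kb, 56.5% over 100 kb and 9.79% within 10 kb. The DON list, which the rule also used, was short. Regions of some genes named below lay close to a DON peak, such as those of Tbc1d4 (1299 bases), Rybp (1379 bases) and Sdc1 (1639 bases). Just inside the rule were chr7:99276264-99278908, which touched a DON peak without sharing a base, chr1:93374989-93378620 at a gap of 1 base and chr7:49626105-49629423 at 13 bases. Just outside it were chr9:40522638-40525806, chr7:16087866-16096394 and chr15:79251214-79255469, which shared 43, 53 and 69 bases with a DON peak. By chromosome the regions made up 18% (chromosome 6) to 25.7% (chromosome 12) of the vehicle peaks.

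By position, 1302 regions (44.2%) lay within 1000 bases of a gene start, against 65.9% of regions in all 4 lists and 14.5% of vehicle-only regions. A further 839 (28.5%) lay inside a gene away from its start and 805 (27.3%) between genes. H3K27ac, the acetyl mark of active promoters and enhancers, was nearly absent from all classes. In the vehicle list, 17 regions missing with DON (0.577%) overlapped an H3K27ac peak, beside 10 of the regions in all 4 lists (0.442%) and 63 of all vehicle regions (0.465%). Without glutamine 3 did so, with DON 1 and with CB-839 none. The H3K27ac lists held 9681 peaks with vehicle, 6687 without glutamine, 117 with CB-839 and 33 with DON, so the last 2 lists could show little.

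Most developmental transcription factor genes at a vehicle region were at regions in all 4 lists. Of 135 homeobox and other developmental transcription factor genes with a start at a vehicle region, 14 (10.4%) were at a region missing with DON and 115 (85.2%) at a region in all 4 lists, and the median width of their regions was 18263 bases. Over all 5474 gene symbols at a vehicle region the shares were 27.5% and 39%, with a median width of 6256 bases. Among the 14 were Hoxa2, Gata6, Isl1, Dlx2, Gbx2, Msx2, Neurod1, Vax1, Hand2, Alx1 and Nr2f2. Of 67 signaling ligand, receptor and antagonist genes, 17 (25.4%) were at a missing region, among them the ligands Wnt5a, Wnt9a, Wnt11, Bmp2, Bmp4, Fgf3, Fgf15 and Nodal, the antagonists Sfrp4, Dkk3, Hhip and Lefty1, and the receptors Fzd1, Epha7 and Met. Of 33 solute carrier and ion channel genes of nerve and muscle, 13 (39.4%) were at a missing region and 13 at a region in all 4 lists. Among the 13 missing were the calcium channel Cacna1b, the potassium channels Kcna1 and Kcnq3, the sodium channel Scn8a, the pacemaker channel Hcn4, the glutamate receptors Grin1 and Gria2, and the transporters Slc17a6, Slc18a3, Slc1a2 and Slc1a3. The shares are given with no test, and the lists also differ in the width of their regions, with medians of 18263, 7294 and 6956 bases.

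Families defined by the start of the gene symbol, chosen after their values were seen, are set beside the 27.5% of all symbols with no test. For Hox genes 2 of 37 were at a missing region, over regions with a median width of 45302 bases, and for Pax, Lhx and Tbx genes none of 9, 8 and 8. For Kcn potassium channel genes it was 15 of 49, for Slc carrier genes 27 of 84, for Sox genes 4 of 15, for Fox genes 5 of 25, for Zfp zinc finger genes 10 of 32, for Cacn calcium channel genes 7 of 14, for Gpr receptor genes 10 of 22, for Pcdh protocadherin genes 6 of 12 and for Eph receptor genes 5 of 8.

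The lists of immune cell and stress response genes had few members at vehicle regions, too few to set against the 27.5% of all symbols. None of the 5 naive and memory T cell genes at a vehicle region was missing with DON. Among effector differentiation genes it was Gzmf, a granzyme, 1 of 4, and among T helper lineage genes Rora, a nuclear receptor, 1 of 10. Among cell cycle inhibitor and tumor suppressor genes they were Rassf5 and Zbtb16, 2 of 8, and among amino acid response genes Vldlr, 1 of 6. The single inhibitory receptor gene and the single interferon-stimulated gene at a vehicle region were not at a missing one. Of the marker genes of other cells at a vehicle region, Ebf1 (B cells, 1 of 4), Flt3 (myeloid cells, 1 of 2) and Slc4a1 (erythroid cells, 1 of 2) were at missing regions. The 1 CD4 T cell and 2 NK cell markers at a vehicle region were not at a missing one, and no CD8 T cell marker lay at a vehicle region. None of the 14 H3K27 methylation enzyme and demethylase genes lay at a vehicle region. Of the 8 PRC1 subunit genes at one, Rybp was the single gene at a missing region, with its start 642 bases outside chr6:100288127-100289749.

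RNA of the genes at the regions was low in every condition. There were 1563 genes with a start within 1000 bases of a region missing with DON, 1011 of them coding, and 15 of the 1563 also had a DON peak at the start. A gene start was taken as the outermost 5′ exon end, so other starts of a gene can lie elsewhere. On RPKM, computed here as CPM per kilobase of exon, a scale that corrects for length, 9.89% of the coding genes reached 1 with vehicle at 48 h, against 6.99% of coding genes at regions in all 4 lists and 49.6% of those at no vehicle peak. With DON the 3 shares were 11.3%, 8.18% and 50.5%. Most coding genes at the regions were under 1 RPKM with DON too.

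After the filter on low counts, 497 of the 1563 genes (31.8%) could be tested at 48 h. A gene kept only because it was high in 1 group had to differ, so the counts that follow describe the 497 and not all members. With DON against vehicle 219 (44.1%) were higher and 124 (24.9%) lower at an adjusted p under 0.05 by edgeR's quasi-likelihood test, where 35.6% of all 16173 genes tested were higher and 35.6% lower. At regions in all 4 lists 249 of 560 genes (44.5%) were higher and 124 (22.1%) lower. The shares at missing and at retained regions thus lay close together, and their difference was not tested. Both differed from the shares of all genes tested, but the level of the genes differed too. A mean log2 CPM of 3 or more was reached by 98 of the 497 and by 9282 of all 16173. Median log2 fold changes were 0.33 for genes at missing regions, 0.37 for genes at regions in all 4 lists and -0.00 for all genes tested. Changes of at least 2-fold upward were called for 151 (30.4%) at missing regions and 31.4% at retained ones, against 16.9% of all genes, and of at least 2-fold downward for 49 (9.86%), against 8.91%. When libraries were scaled by their totals alone, 245 were higher and 93 lower, and the higher share of all calls moved from 49.99% to 62.8% over all genes and from 63.8% to 72.5% at the regions. When only genes with the start inside a region were counted, 161 were higher and 71 lower of 334. In bulk RNA, fewer cells of a type and less RNA per cell cannot be told apart.

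The share of rises also went with the level of the genes. Among genes with a mean log2 CPM under 0, 47.4% of the 230 at missing regions and 42.9% of all genes were higher with DON, and 13.9% and 14.6% were lower. Between 0 and 3 the higher shares were 44.97% of 169 and 45.8%. At 3 or more they were 34.7% of 98 and 29.1%, with 49 of the 98 and 47.3% of all genes lower. The differences from all genes of a level were not tested.

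Markers of other cells moved with DON as well. Summed CPM of 12 myeloid markers was 3.61 to 4.49 in vehicle libraries, with Adgre1, S100a8 and S100a9 at 0, and 23.8 to 26.9 with DON, with none at 0 and 22.1 CPM of it from Cd68. Summed CPM of 11 B cell markers was 4.02 to 4.89, with Ms4a1 at 0, and 10.3 to 11.2 with DON, mostly Cd79b. Summed NK markers, mostly Eomes, which CD8+ T cells also express, were 18.2 to 21.2 and 11.7 to 14.1 CPM. Summed CD4 T cell markers were 7.62 to 8.93 and 9.62 to 11.8 CPM, and erythroid markers 0.151 to 0.292 and 0.377 to 0.545 CPM. Myeloid sums were above vehicle with CB-839 (6.92 to 8.11 CPM) and without glutamine (7.74 to 9.69 CPM) as well. B cell sums overlapped vehicle in both, at 3.91 to 5.33 and 4.49 to 5.68 CPM. The part of these markers in the rise of genes at the regions was not tested.

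**Figure D4:**
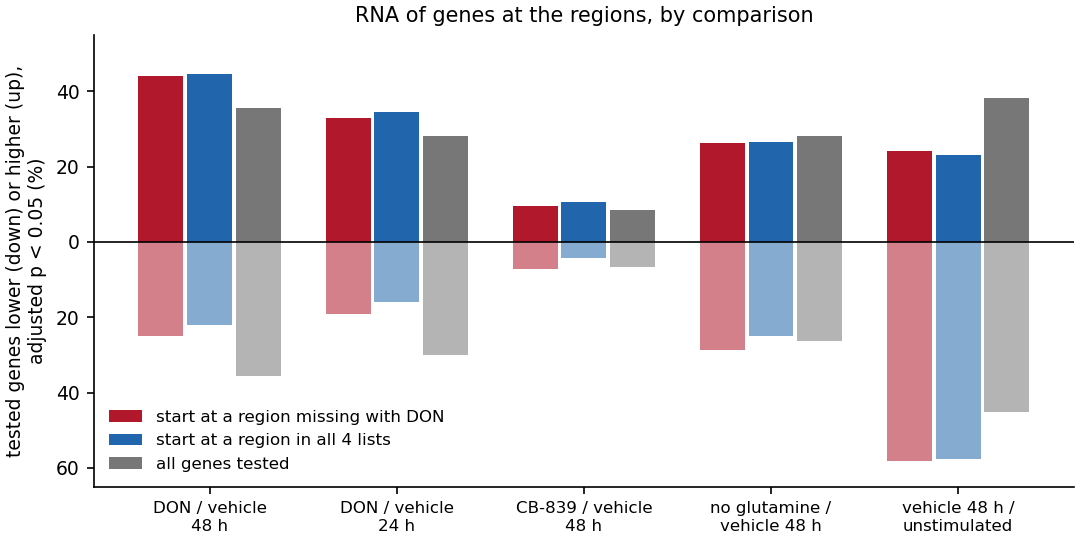
Share of tested genes (y axis, %) called higher (up) or lower (down) at an adjusted p under 0.05 by edgeR, for genes with a start at a region missing with DON, at a region in all 4 lists, and for all genes tested, in 5 comparisons (x axis). The red and blue bars are of similar height in each comparison, for example 44.1% and 44.5% higher with DON at 48 h, and in the comparison with unstimulated cells both reach 58.2% and 57.7% lower against 45.1% of all genes.

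The other comparisons are given side by side, and those at 48 h share the vehicle or the DON libraries of 48 h. At 24 h, 171 of 518 tested genes at missing regions (33%) were higher with DON and 99 (19.1%) lower, against 28.1% and 29.9% of all genes, and 34.5% and 15.9% at regions in all 4 lists. With library totals the 24 h counts were 225 and 71, so that 76.0% of the calls were higher where TMM scaling gave 63.3%. With CB-839 at 48 h 48 of 497 genes (9.66%) were higher and 36 (7.24%) lower, against 8.5% and 6.73% of all genes. A fit of the 8 libraries alone gave 23 and 16, that fit with the replicate block gave 6 and 4, and without CB-839 replicate A or B the lower count was 22 or 23. In glutamine-free medium 130 (26.2%) were higher and 142 (28.6%) lower, against 28% and 26.3% of all genes. With library totals the counts were 152 and 124, so the larger direction depended on the scaling. DON against CB-839 gave 213 higher (42.9%) and 119 lower (23.9%), against 35.7% and 34.7% of all genes. DON against glutamine-free medium gave 226 higher (45.5%) and 116 lower (23.3%), against 34.1% and 34.6% of all genes. The higher share at the regions exceeded the background by several percentage points in each comparison of DON. It lay near the background for CB-839 and for glutamine-free medium. Calls of at least 2-fold were above the background in both, in either direction. Without glutamine they were 13.3% up and 15.5% down, against 6.69% and 4.62% of all genes. With CB-839 they were 9 genes (1.81%) up and 17 (3.42%) down, against 0.612% and 0.767%. At regions in all 4 lists the 2-fold shares without glutamine were 15.2% and 14.8%. The comparisons of DON at 48 h share the DON libraries. At regions in all 4 lists the higher shares were similar, 41.8% for DON against CB-839 and 45.7% for DON against glutamine-free medium. These comparisons were not split by the level of the genes.

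Many of these genes were lower in activated than in unstimulated cells. In vehicle cells at 48 h against unstimulated cells, 395 of 679 tested genes (58.2%) were lower and 164 (24.2%) higher, against 45.1% and 38.3% of all genes. At regions in all 4 lists 57.7% were lower. Car2, a carbonic anhydrase, went from a mean of 32.6 CPM in unstimulated cells to 0.682 CPM with vehicle and 4.17 CPM with DON at 48 h, on CPM scaled over 52 libraries. Gprc5b, an orphan receptor, went from 8.84 to 0.542 and 3.14 CPM, and Slc22a17, a receptor for lipocalin, from 4.52 to 0.88 and 5.46 CPM. Car2 and Gprc5b thus stayed below the unstimulated mean with DON, and Slc22a17 exceeded it. Marker genes of other cells at these regions were lower with vehicle at 48 h too. Ebf1 (B cells) went from 1.44 to 0.163 CPM, Flt3 (myeloid cells) from 1.68 to 0.142 and Slc4a1 (erythroid cells) from 1.15 to 0. The part of a change in cell types in the lower RNA of genes at the regions was not tested.

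Genes were named from 146 candidates at the regions that were called with DON at 48 h, had groups that do not overlap and a mean log2 CPM of at least 0. Of the 236 genes at the regions that had such a mean and no predicted-gene symbol, 87 (36.9%) met the rule upward and 59 (25%) downward, where 28.8% and 36.6% of all 10175 such genes did. Level still differed between these sets. With predicted genes included, 169 genes at the regions had a mean log2 CPM of 0 to 3 and 98 had 3 or more. Over all genes these counts were 3245 and 9282, and the shares meeting the naming rule were not split by level. The largest rise was in Ttyh1, a chloride channel of the tweety family, at chr7:4113700-4122002. It measured 0.164, 0.0249, 0.0938 and 0.174 CPM in the 4 vehicle libraries and 12.8, 13.5, 15.3 and 15.3 CPM with DON, and at most 0.114 CPM with CB-839 and 0.0619 CPM in glutamine-free medium. Only the DON libraries were high, with a log2 fold change of 6.93 ± 0.22 (SE, edgeR adjusted p = 6.8e-15), and it was 5.06 ± 0.32 at 24 h. Ttyh1 passed the low-count filter only through the DON libraries, so it had to differ and its p-value adds no support. Nebl, which encodes the actin-binding protein nebulette, measured 2.29 to 2.88 CPM with vehicle, 1.52 to 2.71 with CB-839, 1.44 to 1.84 without glutamine and 35.6 to 43.3 with DON. Its log2 fold change was 3.99 ± 0.13 with DON (edgeR adjusted p = 7.0e-15) and -0.61 ± 0.15 without glutamine (edgeR adjusted p = 0.0022).

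Tbc1d4, a Rab GTPase-activating protein of glucose transporter traffic, measured 4.92, 4.56, 3.82 and 5.19 CPM with vehicle and 43.4, 44.5, 49 and 39.9 CPM with DON. The rise was of like size at 24 h (log2 3.22) and 48 h (3.25), and the glutamine-free libraries, at 2.57 to 3.44 CPM, lay below every vehicle library. Tspoap1, a binding partner of the mitochondrial protein TSPO, measured 2.74, 2.67, 2.63 and 4.72 CPM with vehicle and 38.5, 41.6, 33.4 and 41 CPM with DON. It rose late, by 0.51 on the log2 scale at 24 h and 3.6 at 48 h. Epcam, an epithelial adhesion molecule, measured 1.57, 1.97, 1.88 and 2.41 CPM with vehicle and 15, 14.6, 15 and 12.4 CPM with DON, a log2 fold change of 2.87 ± 0.12 (edgeR adjusted p = 3.2e-13). In glutamine-free medium Epcam rose by 0.47 (edgeR adjusted p = 0.0065).

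The other rises were Spaca6, a sperm membrane gene whose start lies outside its region (4.81), Gpr25, an orphan receptor (3.94), Rasgef1a, a Ras exchange factor (3.92), Hspa1l, a member of the Hsp70 family (3.21), Slc22a17 (2.69), Car2 (2.63) and Gprc5b (2.55), all as log2 fold changes with edgeR adjusted p under 0.05. Spaca6, like Ttyh1, passed the low-count filter only through the DON libraries and so had to differ. Hspa1l has close relatives in the genome, and its counts are uncertain where reads could be shared. All 12 were also higher in DON than in CB-839 and in glutamine-free medium. In glutamine-free medium Epcam, Hspa1l (1.2), Rasgef1a (1.08), Gprc5b (0.78) and Slc22a17 (0.67) also rose, Slc22a17 not under every alternative, while Nebl and Tbc1d4 fell. With CB-839 Gpr25, Rasgef1a and Gprc5b were called higher and Car2 lower, and each of these 4 calls was lost under at least 1 alternative.

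Several of the largest falls were shared with glutamine-free medium. Slc1a2, a glutamate transporter, at chr2:102649403-102664376, measured 3.92, 4.46, 3.22 and 3.27 CPM with vehicle and 0.421, 0.421, 0.239 and 0.445 CPM with DON. It measured 0.263 to 0.433 CPM without glutamine and 3.11 to 3.91 CPM with CB-839, so the DON and glutamine-free libraries overlapped and the vehicle and CB-839 libraries overlapped. The log2 fold change was -3.27 ± 0.19 with DON and -3.43 ± 0.19 without glutamine (edgeR adjusted p = 1.8e-11 and 5.2e-11), and the region was listed without glutamine. The difference between those conditions was 0.16 ± 0.25 (edgeR adjusted p = 0.59).

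P4ha2, a subunit of collagen prolyl hydroxylase, and Fkbp11, a prolyl isomerase of the secretory pathway, were likewise low with DON and without glutamine. P4ha2 measured 2.84, 2.57, 4.07 and 5.62 CPM with vehicle, 0.477, 0.467, 0.478 and 0.467 CPM with DON and 0.186 to 0.503 CPM without glutamine. Fkbp11 measured 4.71, 4.21, 7.57 and 4.17 CPM with vehicle, 0.673, 0.701, 0.929 and 0.689 CPM with DON and 0.473 to 0.838 CPM without glutamine. Both fell under both conditions, by 2.98 and 3.4 for P4ha2 and by 2.78 and 3.15 for Fkbp11 on the log2 scale. Sdc1, a heparan sulfate proteoglycan of the cell surface, fell further without glutamine, from 14.8 to 16.4 CPM with vehicle to 3.79 to 4.79 CPM with DON and 1.79 to 2.52 CPM without glutamine. DON exceeded glutamine-free medium for it by 0.89 ± 0.11 (edgeR adjusted p = 1.2e-06).

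Vldlr, a lipoprotein receptor also held in the amino acid response list, moved in opposite directions. It measured 0.703, 0.673, 1.09 and 2.23 CPM with vehicle, 0.0281, 0.0467, 0.212 and 0.0889 CPM with DON and 8.03, 8.09, 7.74 and 10.1 CPM without glutamine. The 3 groups did not overlap, with log2 fold changes against vehicle of -3.58 ± 0.56 with DON and 2.88 ± 0.30 without glutamine. DON against glutamine-free medium gave -6.46 ± 0.44 (edgeR adjusted p = 4.5e-10). Its start was at no H3K27me3 peak with DON, whereas its vehicle region overlapped a peak of the glutamine-free list. The DON values correspond to few reads, so the size of the fall is uncertain.

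**Figure D5:**
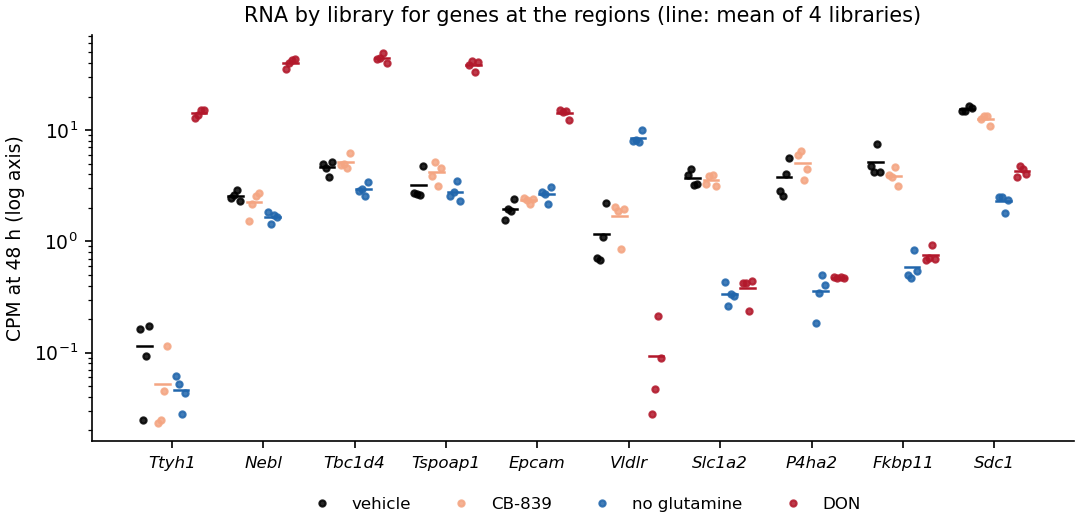
CPM at 48 h in each library (y axis, log axis) for 10 genes at regions missing with DON (x axis), with 4 points and a mean line for each condition. Ttyh1, Nebl, Tbc1d4, Tspoap1 and Epcam are high only with DON, Slc1a2, P4ha2, Fkbp11 and Sdc1 are low with DON and without glutamine, and Vldlr is lowest with DON and highest without glutamine.

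Other falls were Fzd9, a Wnt receptor (-2.45), Plch1, a phospholipase C (-2.44), Actn3, an actin crosslinker of muscle (-2.19), Enah, an actin regulator (-2.11), Ppargc1b, a transcriptional coactivator of mitochondrial genes (-2.03), and Lrrk1, a kinase (-1.60), as log2 fold changes with edgeR adjusted p under 0.05. Actn3, Enah, Ppargc1b and Sdc1 have their start outside the region, within 1000 bases of it. In glutamine-free medium against vehicle, Fzd9 (-1.48), Plch1 (-1.31), Actn3 (-1.67), Lrrk1 (-1.72) and Ppargc1b (-0.29) were also called lower. Enah was not called in glutamine-free medium against vehicle (log2 -0.06), and was lower in DON than in glutamine-free medium (-2.04).

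Of the 14 developmental transcription factors none passed the low-count filter at 48 h. For Nr2f2, Gata6, Isl1, Vax1 and Gbx2 the highest value in any 48 h library was 0.0869 CPM (Nr2f2, DON), so no change of RNA at these genes was detectable at this depth. Of the 17 signaling genes 2 were tested, 0 higher and 1 lower. Efnb3, an ephrin that was tested but not called, measured 1.43 to 2.35 CPM with vehicle and 1.59 to 2.10 CPM with DON. Of the 13 channel and carrier genes 5 were tested, 3 higher and 1 lower with DON, beside 35.6% of all genes in each direction. Kcnq3 measured 0.0234, 0.0499, 0 and 0 CPM with vehicle and 1.12, 1.22, 1.11 and 1.02 CPM with DON (edgeR adjusted p = 3.2e-08). It passed the low-count filter only through the DON libraries, so it had to differ and its p-value adds no support. Cacna1b rose by 1.07 ± 0.40 (edgeR adjusted p = 0.022). Cacna1b lost its call under 5 of 17 alternatives. Slc17a6 was tested but not called (-0.19 ± 0.53).

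Gzmf fell with DON, from 0.539 to 1.28 CPM with vehicle to 0.0701 to 0.253 CPM (log2 -2.41 ± 0.44, edgeR adjusted p = 8.6e-05). Rora measured 1.53 to 2.67 CPM with vehicle, 2.16 to 2.65 CPM with DON and 4.62 to 7.0 CPM without glutamine, where it rose by 1.35 ± 0.15. Summed CD4 T cell markers were 31.1 to 38.4 CPM without glutamine, mostly Zbtb7b, and CD8 markers 3244 to 3376 CPM; their part in this rise was not tested. Rassf5, a Ras-binding tumor suppressor, was the most abundant of the named genes at the regions, at 137 to 158 CPM with vehicle and 172 to 177 CPM with DON (log2 0.23 ± 0.05).

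The genes that write, read and remove the mark were measured in the same libraries. Of 14 tested H3K27 methylation enzyme and demethylase genes 2 rose and 7 fell with DON at 48 h, where 35.6% of all genes were called in each direction. Ezh1 went from 22 ± 1.02 to 53.8 ± 1.33 CPM (SD, n = 4; log2 1.29), and Phf19, a PRC2 accessory factor, from 61.5 ± 0.597 to 122 ± 5.14 CPM (0.99). Kdm6b fell from 19.1 ± 1.30 to 8.56 ± 0.631 CPM (-1.16), and Rbbp7, a histone-binding subunit, by 0.72. Ezh2 measured 588 ± 75.7 CPM with vehicle and 518 ± 33.1 CPM with DON (log2 -0.18, edgeR adjusted p = 0.033), and with library totals the change was 0.0015. Suz12, a core subunit of PRC2, went from 232 ± 52.8 to 169 ± 21.8 CPM (-0.45). Of 20 PRC1 genes 8 rose and 7 fell, against the same background: Pcgf1 rose by 1.88 and Phc1 by 1.62, while Kdm2b, which binds CpG islands, fell by 0.77. Rybp, at its missing region, measured 24.2, 28.4, 17.2 and 21.8 CPM with vehicle and 12, 12.4, 12 and 11.4 CPM with DON (-0.94 ± 0.11, edgeR adjusted p = 4.1e-07), with 14.7 to 17.2 CPM without glutamine. At 24 h Rybp was higher with DON (0.24, edgeR adjusted p = 0.0047), a call lost when the low-count filter was omitted.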

How the data were processed

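The authors deposited 1 table of raw counts, one value for each gene and library. Per the file headers it was produced by featureCounts 2.0.1 in paired mode over exons of GENCODE M25 (mm10), and no strand option was set. Reads of overlapping or antisense genes therefore cannot be told apart. The peak lists, 1 for each condition and mark, were deposited by the authors as merged peaks of 2 replicates at an IDR of 0.05, with a signal value, a scaled score and −log10 IDR columns whose software is not given in the sources used here. The submitters' processing notes list MACS2, deepTools, STAR, FastQC and Bowtie2, with no version. All 1-based coordinates are mm10.

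Peaks were intersected by at least 1 base. A gene was assigned to a region when its start lay within 1000 bases. A symbol was found for 54349 of 55487 counted genes. Counts were filtered by group, scaled by TMM and tested by edgeR 4.0.16 quasi-likelihood (robust) in R 4.3.3 with Benjamini-Hochberg adjustment over all genes tested, with the 16 libraries of a time in 1 fit of group means, and unstimulated cells with the vehicle libraries. The common biological coefficient of variation was 0.093 at 48 h, 0.084 at 24 h and 0.132 for activation. Libraries held 25.6 to 51.0 M counts. The steps were tested on simulated data. Nothing says that replicates came from separate animals or cultures, so p-values may measure only technical spread.

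The regions, the 18 gene lists and the tests were chosen with earlier results of these data known. Named genes had a start within 1000 bases of a region missing with DON, no symbol of the predicted-gene kind, a called difference with DON at 48 h, average log2 CPM not under 0, and groups that do not overlap; the 12 largest changes in each direction were taken, plus up to 6 members of each list by CPM. Named regions were the 6 widest, the 6 of highest signal, and the 3 on each side of the overlap rule. Some genes that met these rules are not reported here.

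Whether replicates of the same letter are paired was checked by correlating their deviations from group means. The 4 pairs all passed 0.1 in 2 comparisons: at 24 h between DON and vehicle (range 0.15 to 0.54), and between DON and CB-839 at 48 h (range 0.12 to 0.22). What a letter stands for is not stated. Alternatives were RLE scaling, library totals, the replicate block, DESeq2 1.42.0, omission of the count filter, separate fits of 8 libraries, each library dropped in turn, a stricter IDR, 50% overlap, a gap of 1000 bases to DON peaks and a window of 2500 bases; counting only starts inside a region was added after seeing the data.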

Additional observations from a re-analysis of the deposited data

Results flagged for a closer look

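In the 124 groups of 4 libraries at 48 h for the genes reported here, 13 held 1 library far from the other 3, where chance alone flags about 1 in 20 groups. With vehicle these were Tspoap1 replicate D (4.72 CPM, the next 2.74), Gprc5b replicate D (0.724 against 0.469) and Fkbp11 replicate C (7.57 against 4.71). With DON they were Epcam replicate D (12.4 against 14.6), Slc1a2 replicate C (0.239 against 0.421), Fkbp11 replicate C (0.929 against 0.701) and Ppargc1b replicate A (2.36 against 2.81). With CB-839 they were all in replicate C: Vldlr (0.858 against 1.87), Ppargc1b (15.8 against 14.6) and Rora (2.42 against 2.20). Without glutamine they were Vldlr (10.1 against 8.09), Slc17a6 (0.580 against 0.394) and Rybp (17.2 against 15), all in replicate D.

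Rassf5 moved in opposite directions with DON at the 2 times. At 24 h the DON libraries (95.1 to 101 CPM, scaled over 52 libraries) lay below the vehicle libraries (112 to 123 CPM), a log2 fold change of -0.21, and at 48 h they lay above them (177 to 182 against 144 to 162 CPM, 0.23). With library totals the 24 h change was -0.023 (edgeR adjusted p = 0.70), so the fall at 24 h was not called under that scaling. The difference between the times was not tested.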

How the results depend on the processing

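The number of regions depended on the peak threshold. With IDR 0.01 in the vehicle, CB-839 and glutamine-free lists and 0.05 with DON there were 684 regions, 469 genes and 1 region with an H3K27ac peak, and with IDR 0.01 in every list 1294 regions, 1107 genes and 6 with an H3K27ac peak. The share of shared regions missing with DON was 37.5% and 70.9% under these settings, 63.6% with 50% overlap and 54.9% with a gap of 1000 bases, against 56.5%. For CB-839 against vehicle at 48 h, the fit of 8 libraries gave 23 higher and 16 lower genes at the regions, and with the replicate block 6 and 4 (all genes: 2464 as reported, 1054 and 331, and 1523 without CB-839 replicate A); the cause was not tested. Other counts beyond 1.5 times were 71 lower genes with DON at 48 h for starts inside the region (fewer genes tested), 179 lower for DON against CB-839 with 2500 bases (more genes tested), and 627 lower for activation with no filter (more genes tested).

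Leaving out 1 library gave 212 to 237 higher and 115 to 127 lower genes with DON at 48 h, 154 to 184 and 87 to 105 at 24 h, 35 to 57 and 22 to 45 with CB-839, 117 to 130 and 136 to 151 without glutamine, and 157 to 177 and 382 to 415 for activation. For DON against CB-839 the ranges were 201 to 214 and 110 to 117, and against glutamine-free medium 221 to 233 and 105 to 114. The replicate block in the fit of 16 libraries gave 216 higher and 121 lower with DON at 48 h, and 186 and 102 at 24 h, and moved no count at the regions beyond 1.5 times. No named gene at the regions that was called changed sign in any comparison; Ezh2 and Pcgf6 did with library totals (0.0015 and 0.034). Calls lost for a named gene concerned 1 gene for DON at 48 h, Cacna1b, beside 10 enzyme and subunit genes, among them Ezh2 and Suz12, and all 7 called for CB-839; at 24 h Flt3, Rassf5 and Rybp were among those that lost one. Scaling by library totals shifted the median log2 change over every tested gene from -0.00 to 0.19 (DON at 48 h), -0.01 to 0.18 (24 h), 0.02 to 0.12 (no glutamine), 0.02 to 0.19 (DON against CB-839) and -0.16 to -0.44 (activation). Of the 1563 genes at the regions 497 had counts high enough to be tested, and nothing can be said of RNA changes at the others.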
